A study of Homo sapiens with 151 samples.

Results

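Binding of DNA-associated proteins (DAPs) was examined at the promoters of 10 heat shock and chaperone genes, out of 20033 promoters of protein-coding genes. The genes were *HSPA1A*, *HSPA1B*, *HSPA8*, *DNAJB1*, *HSPH1*, *HSP90AA1*, *HSP90AB1*, *HSPD1*, *HSPE1* and *HSPB1*, chosen by name but with earlier results of these data known. For each, every peak list with a peak overlapping the 500 bp on either side of the canonical transcription start site (TSS) was recorded, and such a promoter is called bound by that list. HepG2 cells, a human line from a liver cancer, were profiled by ChIP-seq with an antibody to the FLAG tag carried by each DAP, and an input library made without antibody served as control. Of 127 lists, 121 are preferred data sets (15 of them for DAPs that are not sequence-specific transcription factors, TFs) and are used throughout. All lists are from the same cell line, the labels name no heat shock or other treatment, and each DAP has 1 list, so binding could not be compared between stressed and unstressed cells or between replicate lists. The lists hold 195 to 61748 peaks (median 8680), and the sequencing depth behind them is unknown.

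Heat shock proteins are molecular chaperones that keep other proteins from misfolding. HSP70 proteins, with HSP40 partners and HSP110 exchange factors, hold and release unfolded chains, HSP90 matures kinases and receptors, HSP60 and HSP10 form the folding chamber of mitochondria, and small heat shock proteins hold unfolded chains without ATP. On stress, heat shock factors (HSFs) bind as trimers to heat shock elements, inverted repeats of the unit nGAAn, and switch on the inducible genes. HSF4, best known from the eye lens, is the only HSF among the lists, and HSF1, the main stress-responsive factor, is not among them. By textbook knowledge *HSPA1A* and *HSPA1B* (inducible HSP70), *DNAJB1* (HSP40), *HSPH1* (HSP110), *HSP90AA1* (inducible HSP90) and *HSPB1* (small heat shock protein) were treated as inducible. *HSPA8* (constitutive HSP70), *HSP90AB1* (constitutive HSP90), *HSPD1* (HSP60) and *HSPE1* (HSP10) were treated as constitutive. *HSPD1* and *HSPE1* also respond to stress and are transcribed in opposite directions from TSSs 539 bp apart, so the windows around their TSSs overlap.

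The reference sequence just upstream of the TSSs is shown first because the heat shock elements within it are set beside the HSF4 peaks. The element was searched as 3 alternating units on both strands, that is GAA, 2 bases of any kind, TTC, 2 bases of any kind and GAA, or the reverse complement of this run. Each line is read 5′ to 3′ on the strand of the gene in hg38, and capitals mark every element with at most 1 mismatch. No line is given for *HSP90AB1*, whose upstream stretch of 186 bases held no element. The inducible HSP70 pair (chr6:31815343-31815542 and chr6:31827538-31827737, both on the plus strand), *DNAJB1* (chr19:14518408-14518597, minus), *HSP90AA1* (chr14:102087045-102087244, minus) and *HSPB1* (chr7:76302473-76302672, plus) are shown for up to 200 bases before the TSS.
HSPA1A: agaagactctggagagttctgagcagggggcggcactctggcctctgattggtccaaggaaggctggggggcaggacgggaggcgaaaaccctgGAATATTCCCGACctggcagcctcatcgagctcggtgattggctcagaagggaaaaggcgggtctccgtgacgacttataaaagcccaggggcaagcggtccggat
HSPA1B: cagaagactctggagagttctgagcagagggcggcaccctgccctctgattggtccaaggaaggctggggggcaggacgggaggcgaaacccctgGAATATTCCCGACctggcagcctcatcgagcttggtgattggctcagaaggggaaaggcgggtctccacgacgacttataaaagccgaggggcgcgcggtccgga
DNAJB1: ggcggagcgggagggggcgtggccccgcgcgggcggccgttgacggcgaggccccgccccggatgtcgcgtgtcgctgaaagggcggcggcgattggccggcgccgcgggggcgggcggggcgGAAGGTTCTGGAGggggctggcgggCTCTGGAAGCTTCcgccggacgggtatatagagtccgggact
HSP90AA1: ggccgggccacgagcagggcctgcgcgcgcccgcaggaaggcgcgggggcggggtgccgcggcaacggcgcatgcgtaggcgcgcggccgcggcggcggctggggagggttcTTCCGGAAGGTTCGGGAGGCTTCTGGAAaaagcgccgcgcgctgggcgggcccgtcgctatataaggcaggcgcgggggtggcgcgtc
HSPB1: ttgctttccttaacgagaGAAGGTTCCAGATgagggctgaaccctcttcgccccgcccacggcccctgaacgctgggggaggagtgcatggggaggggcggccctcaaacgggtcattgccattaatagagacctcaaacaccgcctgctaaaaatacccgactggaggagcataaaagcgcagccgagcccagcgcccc

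For *HSPA8* and *HSPH1*, whose upstream bases overlap exons of other transcripts, only 30 bases around the exact element are shown. The *HSPD1* and *HSPE1* pair was set in advance to be shown in the same way. *HSPA8* has an exact element at chr11:123062346-123062375 (distal) and another at chr11:123062171-123062200 (proximal), *HSPH1* at chr13:31161943-31161972, and *HSPD1* and *HSPE1* between their TSSs at chr2:197500065-197500094, printed on the strand of *HSPD1*. These genes other than *HSPE1* lie on the minus strand.
HSPA8 distal: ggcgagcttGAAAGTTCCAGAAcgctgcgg
HSPA8 proximal: gcgggccccTTCTGGAAGGTTCtaagatag
HSPH1: tgccGCAGATTCTGGAAAGTTCtgatcagt
HSPD1 and HSPE1: cgcgGCATTTTCTGGAAAGTTCTGGAAccg

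An exact element lay within 500 bp of the TSS at 5 of the 10 promoters (*HSPA8*, *HSPH1*, *HSP90AA1*, *HSPD1* and *HSPE1*, the last pair through the same bases), against 1.32% of all coding promoters. With at most 1 mismatch, 9 of the 10 had an element, against 16.7% of coding promoters. The exception was *HSP90AB1*, whose exact elements lay in intron 1, at 677 to 689 and at 730 to 742 bp downstream of the TSS and so outside the window. Within 1000 bp of the TSS, 7 of the 10 had an exact element, against 2.65% of coding promoters. The added genes were *HSP90AB1* and *HSPB1*, the latter with overlapping elements in intron 1 from 947 to 964 bp. A TATA box (TATAAA or TATATA on the gene's strand, 20 to 40 bp upstream) was found in *HSPA1A*, *HSPA1B*, *DNAJB1*, *HSP90AA1* and *HSP90AB1*, against 5.09% of coding promoters. CCAAT on either strand within 250 bp upstream was found in *HSPA1A*, *HSPA1B*, *HSPA8*, *DNAJB1* and *HSPH1*, against 34.3%. A match describes the letters of the reference only, and these genes are known stress genes, so the counts carry no test.

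All 10 promoters were bound by at least 31 lists (25% of the preferred lists), which 36.9% of coding promoters reached. The median coding promoter was bound by 15 lists and the 90th percentile was 63. *HSPA1A* and *HSPB1* were bound by the fewest, 37 of 121 lists each (30.6%, 95% Wilson interval 23.1 to 39.3). *HSPH1* was bound by 38 lists (31.4%), *HSPA8* by 52 (43.0%, interval 34.5 to 51.9) and *HSP90AA1* by 57 (47.1%, interval 38.4 to 56.0). *DNAJB1* was bound by 60 lists (49.6%, interval 40.8 to 58.4), *HSPA1B* by 71 (58.7%, interval 49.8 to 67.0) and *HSP90AB1* by 82 (67.8%, interval 59.0 to 75.4). *HSPD1* and *HSPE1* stood at the top with 104 (85.9%, interval 78.6 to 91.0) and 107 lists (88.4%, interval 81.5 to 93.0), more than 99.8% and 99.9% of coding promoters. In this order the intervals of neighbours overlapped except between *HSP90AB1* and *HSPD1*. At *HSPE1* 54 of the 107 summits lay more than 500 bp upstream, towards *HSPD1*. With a 250 bp window *HSPE1* was bound by 80 lists and *HSPD1* by 99. Intervals cover only the counting of lists, which are not independent where they share an input library.

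**Figure D1:**
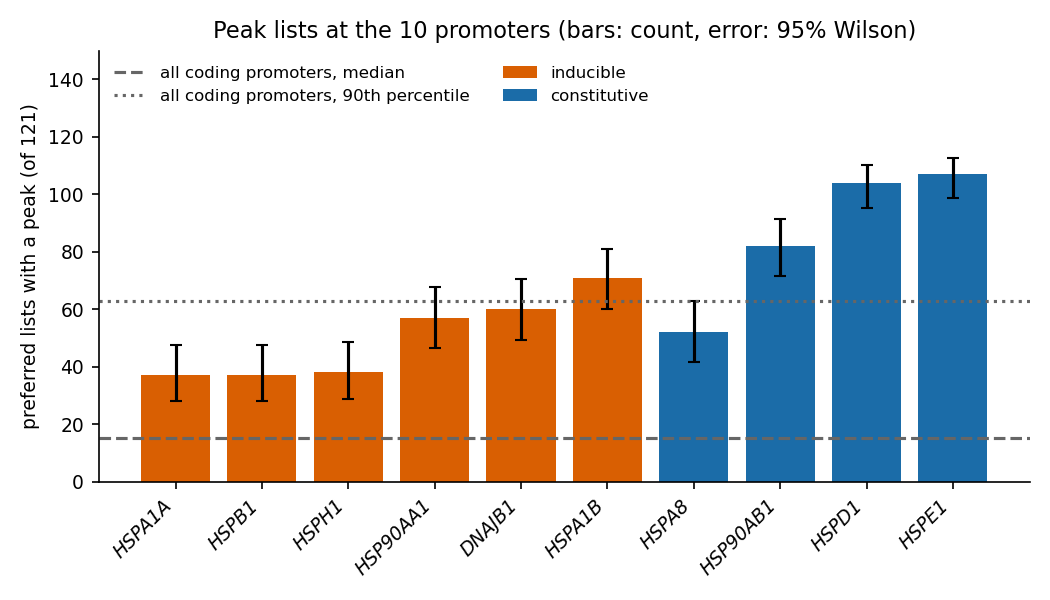
Number of preferred lists (vertical axis, of 121) with a peak within 500 bp of each TSS (horizontal axis), with 95% Wilson intervals; lines give the median (15) and 90th percentile (63) of all coding promoters. Every bar is above the median, and the constitutive *HSP90AB1*, *HSPD1* and *HSPE1* are above the 6 inducible genes.

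The constitutive promoters were bound by more lists than the inducible ones, with overlap between the groups. The 6 inducible promoters had a median of 47.5 lists (range 37 to 71) and the 4 constitutive promoters a median of 93 (range 52 to 107). *HSPA8* (52 lists) lay within the range of the inducible genes. Apart from the *HSPD1* and *HSPE1* pair, only *HSP90AB1* (82 lists) lay above that range. Seen list by list, a mean of 41.3% of the inducible promoters was bound (SD 29.98, n = 121 lists) against 71.3% of the constitutive promoters (SD 28.6). The constitutive share was higher in 94 lists, the inducible share in 10, and the shares were equal in 17, of which 7 bound no member. The 10 lists of higher inducible share were CENPX, E2F8, HKR1, MEIS1, NCOA2, PRDM4, ZBTB47, ZNF430, ZNF546 and ZNF571, which bound 0.469%, 44.8%, 17.3%, 28.4%, 27.4%, 7.01%, 5.56%, 38.1%, 27.9% and 29.1% of coding promoters in this order. Of these, ZNF430 bound all 6 inducible promoters and 3 of the 4 constitutive, and CENPX was the only list to bind an inducible promoter (*HSP90AA1*) and no constitutive one. The CENPX peak reached into the window but had its summit at -736 bp from the TSS, outside it. At the other end, HIC2, MLXIP, SLC30A9 and ZNF74 bound all 4 constitutive promoters and 1 inducible promoter each, with 19.8%, 12.4%, 19% and 30.2% of coding promoters bound. These groups hold few genes, chosen by name, and no test was made between them. With *HSPD1* and *HSPE1* counted as 1 promoter the constitutive median fell to 67.8% of lists against 39.3% for the inducible genes. The means and counts taken list by list were not recomputed in this way. They count the shared promoter once for each gene, and 101 lists bound both genes. How far the count of 94 lists depends on this was not tested.

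**Figure D2:**
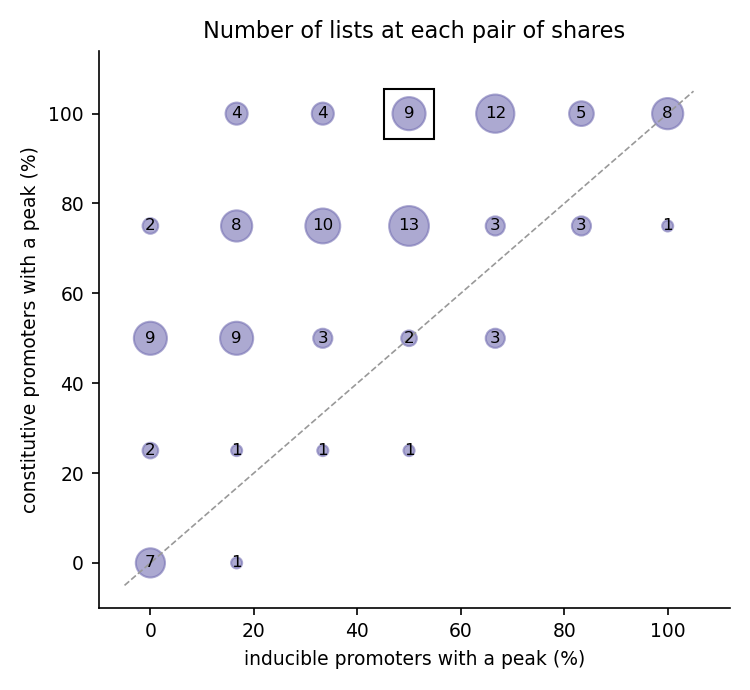
Share of the 4 constitutive promoters bound (vertical axis, %) against the share of the 6 inducible promoters bound (horizontal axis, %) in each list; circles carry the number of lists at that point, the square marks the point of HSF4 and the dashed line equality. Most lists lie above the line, where 94 of 121 bound a larger share of the constitutive genes. *HSPD1* and *HSPE1*, whose windows overlap, are counted as separate genes.

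Longer lists bound more of the genes, and the constitutive share was the higher in all 3 classes of list length. In the 40 longest lists (13620 to 61748 peaks) a mean of 66.7% of inducible and 91.9% of constitutive promoters was bound. The values were 41.1% and 77.4% in the 41 middle lists and 16.2% and 44.4% in the 40 shortest (195 to 4575 peaks). Shares were also taken within the 8 input libraries, or pairs of them, that serve at least 6 lists. The inducible share was below the constitutive share in all 8, with differences from -46.1 to -18.1 percentage points. The 15 lists of DAPs other than sequence-specific TFs gave 47.8% and 75%, and the TF lists 40.4% and 70.8%. All these constitutive shares count *HSPD1* and *HSPE1* as separate genes and were not recomputed with the pair merged.

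The lists differed widely in how many of the 10 promoters they bound, with a median of 6. All 10 were bound by 8 lists, E4F1, MGA, POU2F1, SALL1, ZBTB12, ZFP91, ZMYM4 and ZNF701, which bound 35.5%, 49.8%, 52.7%, 55%, 54.1%, 53%, 49.1% and 39.2% of coding promoters in this order. HES4, KAT6A, MED12, SRY, ZNF430 and ZNF544 bound 9, with 22.5% to 38.1% of coding promoters bound. E2F8, FOXC1, GLYR1, KLF15, L3MBTL4, MEIS2, NCOA2, SMAD7, STAT5A, ZNF160, ZNF18, ZNF329, ZNF529, ZNF546 and ZNF558 bound 8 (18.2% to 44.8% of coding promoters). AFF1, BAZ2A, ELK3, HSF4, PHTF1, RCOR3, SALL2, SIX5, ZNF275, ZNF528, ZNF704 and ZNF747 bound 7 (21.4% to 36.2%). EBF1, HES6, HKR1, MED13L, MEIS1, NR1H2, TTF1, ZFP90, ZGLP1, ZIM2, ZNF219, ZNF222, ZNF235, ZNF552, ZNF571, ZNF669, ZNF746, ZNF790, ZNF816 and ZNF85 bound 6 (8.71% to 30.04%). ELK4, HIC2, JRK, MLXIP, PRMT5, REV3L, SLC30A9, ZNF140, ZNF280C, ZNF593, ZNF74, ZNF75D, ZNF827, ZNF865, ZNF879 and ZSCAN12 bound 5 (7.79% to 30.2%). FAM200B, GLMP, MZF1, NCOA1, NPAS2, PBX3, ZBTB47, ZFAT, ZFHX3, ZMYM2, ZNF688 and ZSCAN25 bound 4 (3.25% to 30.7%). CAMTA1, DPF1, E2F7, FOSL1, FOXO4, PAX8, PRDM4, SP110, TEAD2, THAP1, ZNF559 and ZNF850 bound 3 (4.11% to 18.8%). CENPBD1, LHX6, PEG3, ZNF148, ZNF251, ZNF284, ZNF439, ZNF646, ZNF783 and ZUFSP bound 2 (1.25% to 11.4%), and CENPX, NFIB and ZNF334 bound 1 (0.469% to 3.50%). No member was bound by CSDA, HMGN3, SCMH1, TRIM24, ZBTB22, ZNF45 and ZNF853, which hold 195 to 4673 peaks and bind 0.195% to 5.78% of coding promoters.

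HSF4 bound 7 of the 10 promoters, *HSPA1B*, *HSPA8*, *DNAJB1*, *HSPH1*, *HSP90AB1*, *HSPD1* and *HSPE1*, the last pair through a single peak. All 4 constitutive genes but only 3 of the 6 inducible genes were among them, and no HSF4 peak lay at *HSPA1A*, *HSP90AA1* or *HSPB1*. *HSPA8* counted only through a peak with its summit at -567 bp from the TSS, outside the window. The HSF4 call at *HSPA8* was lost with a 250 bp window and with summits required in the window. With any annotated TSS of the gene allowed, *HSP90AA1* also had an HSF4 peak. HSF4 bound 30.9% of coding promoters, and 69.1% of the 7397 coding promoters bound by at least 31 lists, a class that holds all 10 genes. Its share of the 10 genes was thus near that of other promoters bound by as many lists. None of the HSF4 peaks at these genes was among the strongest of its list. Ranked by signal among 13620 HSF4 peaks and given as a percent rank (0 for the strongest), *HSPA1B* stood at 19.99, *HSP90AB1* at 32.2, *HSPD1* and *HSPE1* at 34.2, *DNAJB1* at 46.3, *HSPA8* at 70.1 and *HSPH1* at 72.6. Only the peak at *HSPA1B* had the top score of 1000, and the others scored 553 to 795 on a scale whose lowest deposited value is 540. The HSF4 list has no replicate, so these ranks carry no error.

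The HSF4 summits lay on the heat shock element at *HSPD1* and *HSPE1* and away from it at the other bound genes with an element in the window. *HSP90AB1*, with its HSF4 summit at 18 bp, had no element in the window even with 1 mismatch allowed. Positions are given from the TSS on the gene's strand, negative upstream. In the shared promoter of *HSPD1* and *HSPE1* the summit (chr2, peak 197499845 to 197500304) was 1 and 4 bp from the centres of the overlapping exact elements printed above. This place was not particular to HSF4, as the E2F8 summit lay on these elements too, at -233 bp from the *HSPD1* TSS. At *HSPH1* the HSF4 summit lay at -21 bp, 32 bp from the exact element. The summits of SIX5 (-54 bp), ZNF571 and ZNF701 (-57 bp) and ZNF879 (-49 bp) lay on that element. At *HSPA1B*, bound by HSF4 at 25 bp in exon 1, the nearest element with 1 mismatch was 124 bp away. At *DNAJB1*, bound by HSF4 at 161 bp, it was 207 bp away. The HSF4 peak of *HSPA8* had its summit at -567 bp and held neither of the exact elements, which 24 and 37 other preferred lists covered. *HSP90AA1* has the longest run of units printed above, and HSF4 had no peak there, whereas 32 preferred lists covered that run.

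The HSF4 list as a whole did not stand apart in its content of heat shock elements. An exact element lay within 50 bp of the summit in 0.11% of its peaks (Wilson interval 0.067 to 0.182), against a median of 0.0949% over the preferred lists. This put HSF4 in place 51 of 121. With 1 mismatch allowed the share was 1.07% against a median of 1.33%, in place 97. The known motif therefore did not set the list apart as that of an HSF, and its label was not checked in another way. HIC2, ZNF571 and ZNF701 share the input library of HSF4, and they bound 5, 6 and 10 of the promoters.

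**Figure D3:**
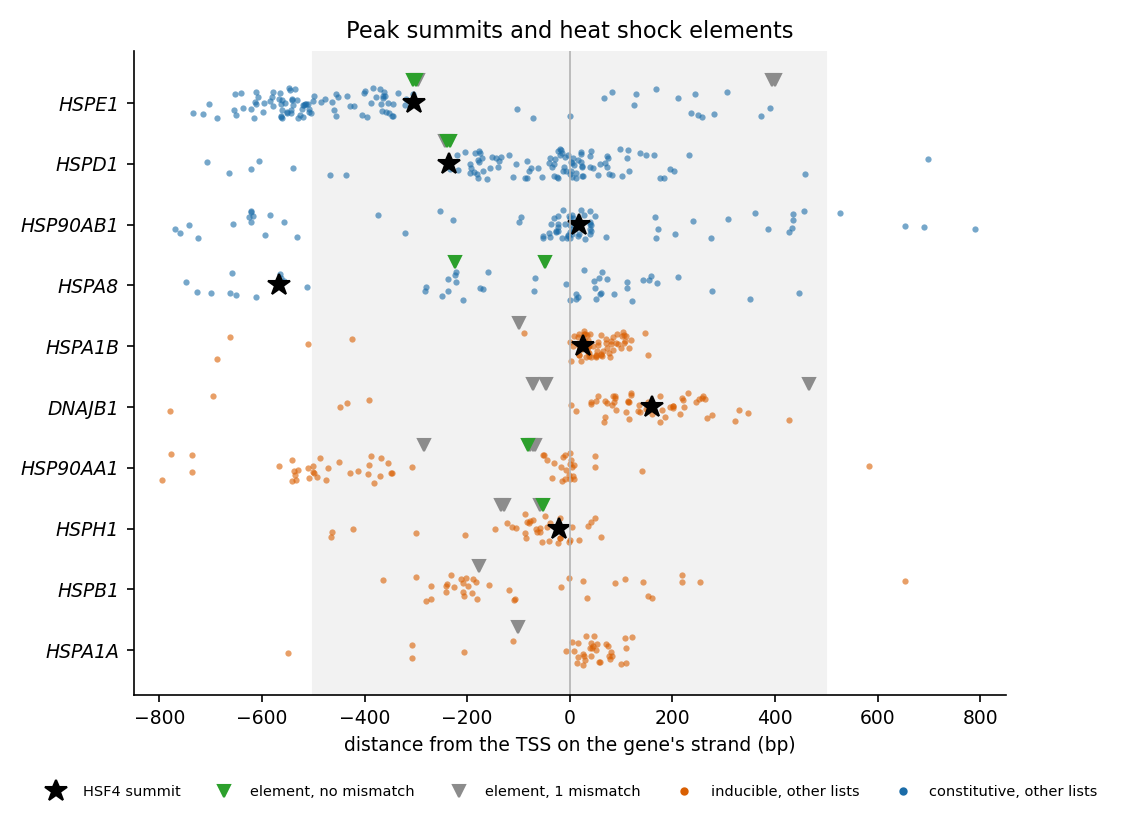
Position of each list's strongest peak summit (points) from the TSS on the gene's strand (horizontal axis, bp) for each gene (vertical axis), with HSF4 as stars and heat shock elements within the window as triangles; the grey band is the 500 bp window. The HSF4 star meets an exact element at *HSPD1* and *HSPE1* and lies 32 bp from it at *HSPH1*. The E2F8 summit also lies on the element at *HSPD1* and *HSPE1*, and those of SIX5, ZNF571, ZNF701 and ZNF879 on the one at *HSPH1*.

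The inducible HSP70 genes *HSPA1A* and *HSPA1B* lie 12195 bp apart, encode nearly the same protein and had different sets of lists. *HSPA1A* alone was bound by 12 lists, *HSPA1B* alone by 46 and both by 25. Lists bound at 1 of the promoters only were thus mostly *HSPA1B* lists, with the *HSPA1A* share 20.7% (exact binomial interval 11.2 to 33.4). The difference passed the exact two-sided McNemar test (p = 8.2e-06, adjusted p = 3.29e-05 by Benjamini-Hochberg over the 4 pairs tested here). It also passed when lists of the same input library, or the same pair of libraries, were permuted together (adjusted p = 0.0012). The 12 lists of *HSPA1A* alone were DPF1, FAM200B, GLMP, MEIS1, SALL2, SIX5, SLC30A9, ZNF546, ZNF827, ZNF85, ZNF879 and ZSCAN25. Those of *HSPA1B* alone included HSF4, the mediator subunits MED12 and MED13L, E2F7, E2F8, EBF1, ELK3, FOSL1 and STAT5A.

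The copies share sequence. Of the 32-base words in the *HSPA1A* window, 31.8% occur elsewhere in the genome, all of them in the *HSPA1B* window. Such words made up all of the stretch from 250 to 500 bp downstream, 18.3% of the 250 bp upstream and 6.82% of the first 250 bp downstream, where most summits lay. Among the 200 bases upstream printed above, 188 were identical. How the authors placed reads that match both copies is not given in the sources used here, and the part of this in the counts was not tested. The TSS of *HSPA1L* lies 260 bp from that of *HSPA1A*, and its promoter was bound by the same number of lists, 37. Summits had nearly the same place in both genes, with medians of 42 bp each and quartiles of 16 to 74 bp in *HSPA1A* and 25.5 to 79 bp in *HSPA1B*, within exon 1.

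In the median, peaks at *HSPA1A* ranked lower in their lists than those at *HSPA1B*, a description without a test. The medians are over different sets of lists, of which 25 were shared, and ranks were not compared list by list. Over its 37 lists *HSPA1A* had a median percent rank of 43.1 (range 13.3 to 86.0), and none of the peaks was in the top 10% of its list. Its highest ranks were in SRY (13.3), ZMYM4 (13.4) and HKR1 (16.2). In these lists *HSPA1B* stood at 23.9, 9.22 and 33.5, so SRY and HKR1 ranked *HSPA1A* higher. *HSPA1B* had a median of 24.5 over 71 lists, with 11 in the top 10%. The histone acetyltransferase KAT6A gave it a percent rank of 1.05, followed by FOXC1 (2.54) and ZNF571 (3.71). KAT6A also bound *HSPA1A*, at a percent rank of 24.1.

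*HSPA8*, which makes the constitutive HSP70, was bound by more lists than *HSPA1A* and by fewer than *HSPA1B*. Against *HSPA1A*, 28 lists bound *HSPA8* alone, 13 bound *HSPA1A* alone and 24 bound both (exact McNemar test, adjusted p = 0.0275). That call was lost with input libraries permuted together (adjusted p = 0.0517) and with a 250 bp window (exact McNemar test, adjusted p = 0.2). Against *HSPA1B*, 10 lists bound *HSPA8* alone, 29 bound *HSPA1B* alone and 42 bound both (exact McNemar test, adjusted p = 0.0045, and 0.0441 with input libraries together), a call lost when any annotated TSS of the gene was allowed (adjusted p = 0.176). HIC2, PBX3, ZNF704 and ZNF865 bound *HSPA8* and neither inducible gene. Its summits had a median of -37.5 bp and spread widely: of 52, 12 lay beyond -500 bp, 13 within 250 bp upstream and 22 within 250 bp downstream. The highest ranks were in ZMYM4 (3.30, summit at -224 bp) and ZNF865 (8.97, at -222 bp), both inside the distal exact element (-230 to -218 bp), and in ZNF879 (8.74, at 58 bp).

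*DNAJB1*, the HSP40 that delivers unfolded chains to HSP70, and *HSPH1*, the HSP110 that recharges HSP70, differed in where they were bound. At *DNAJB1* 47 of 60 summits lay in exons, 8 in introns and 5 upstream of the TSS (median 136 bp). HES4 (9.43), EBF1 (11.01) and ZNF816 (11.1) gave its highest percent ranks. At *HSPH1* 31 of 38 summits lay upstream (median -57 bp), where the exact element spans -59 to -47 bp, and 36 lists covered that element. MGA gave *HSPH1* a percent rank of 0.865, ELK3 4.74 and SRY 7.16, all with summits at -88 or -86 bp.

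The constitutive HSP90 gene was bound by more lists than the inducible one. *HSP90AB1* alone was bound by 32 lists, *HSP90AA1* alone by 7, both by 50 and neither by 32. The share of *HSP90AA1* among lists at 1 of the promoters was 17.9% (interval 7.54 to 33.5, exact McNemar test, p = 7.0e-05, adjusted p = 0.00014, and 0.0012 with input libraries permuted together). The 7 were CENPX, HKR1, MEIS1, NPAS2, REV3L, ZNF688 and ZNF865. Among these, CENPX (-736 bp), HKR1 (-777 bp), MEIS1 (-510 bp) and ZNF688 (-737 bp) had summits outside the window. With summits required in the window, 8 lists bound *HSP90AA1* alone and 36 bound *HSP90AB1* alone. Lists at *HSP90AB1* alone included HSF4, HIC2, PBX3, SMAD7, TEAD2, ZFHX3 and PRMT5. *HSP90AA1* summits lay mostly upstream, 45 of 57, with a median of -367 bp, while those of *HSP90AB1* had a median of 1 bp and ranged from -770 to 789 bp. The highest ranks at *HSP90AA1* were in MGA (5.03), ZBTB12 (8.07) and KAT6A (8.97). At *HSP90AB1* they were in ZFP91 (0.464), ZMYM4 (2.40) and E2F7 (4.66).

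The mitochondrial pair *HSPD1* and *HSPE1* carried the strongest peaks of the 10 genes. Their windows were bound in common by 101 lists, by 3 at *HSPD1* only (E2F7, NFIB and ZNF879) and by 6 at *HSPE1* only (CAMTA1, EBF1, PBX3, PEG3, ZNF334 and ZNF783). The 11 lists at neither were CENPX, CSDA, HMGN3, PRDM4, SCMH1, TRIM24, ZBTB22, ZBTB47, ZNF251, ZNF45 and ZNF853. The median percent rank at *HSPD1* was 7.90, and 60 of 104 peaks were in the top 10% of their list and 76 had the top score. L3MBTL4 (0.454), E2F8 (0.495) and MGA (0.521) gave the highest ranks, from the same peaks at both genes. Summits centred on the *HSPD1* side, at a median of -19 bp from the *HSPD1* TSS and -501 bp from that of *HSPE1*. The exact elements between the genes were covered by 64 and 66 lists.

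*HSPB1*, which makes the small heat shock protein HSP27, was bound mainly upstream, with 26 of 37 summits before the TSS and a median of -182 bp. Its element with 1 mismatch lies at -182 to -170 bp and was covered by 32 lists. MGA gave the gene a percent rank of 0.939 with a summit at -188 bp, followed by ZBTB12 (12.1) and ZNF18 (14.3). MGA, a partner of MAX, thus had its peaks at *HSPH1*, *HSPB1* and the *HSPD1* and *HSPE1* pair within its top 1%, and at *HSPA1A* at 77.0 and *HSPA1B* at 44.7.

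**Figure D4:**
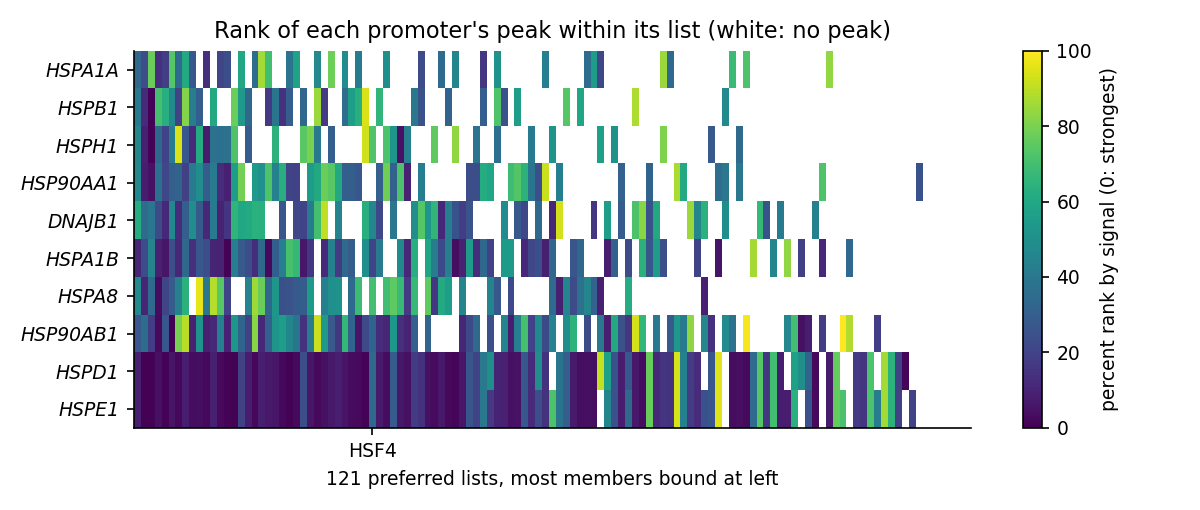
Percent rank by signal of the strongest peak in each list (columns, 121 preferred lists ordered by members bound, HSF4 labelled) at each gene (rows); dark is strong and white is no peak. The dark rows are *HSPD1* and *HSPE1*, with a median of 7.90 at *HSPD1*, and *HSPA1A* has no peak in the top 10%.

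Lists at the less bound genes were largely contained in those at *HSPD1* and *HSPE1*. All 37 lists of *HSPA1A* also bound *HSPD1*, as did 97.3% of those of *HSPB1*, 97.4% of *HSPH1* and 96.2% of *HSPA8*. These were 35.6%, 34.6%, 35.6% and 48.1% of the *HSPD1* lists. *HSPD1* itself was bound by 85.9% of all lists. Likeness between promoters was measured as the Jaccard index, shared lists over lists at either, across the 121 lists. Apart from the *HSPD1* and *HSPE1* pair (0.918), the most alike members were *HSP90AB1* with *HSPE1* (0.688) and with *HSPD1* (0.661). *HSPA1A* and *HSPA1B*, despite their sequence, had an index of 0.301.

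Over all coding promoters the most like *HSPD1* and *HSPE1* were *PCNA* (0.904 and 0.913), the sliding clamp of DNA replication, and *BARHL1* (0.896 and 0.905), both bound by more lists than either gene. For *HSP90AB1* they were *OGDHL* (0.786) and *HDAC2* (0.774), and for *HSPA1B* *HNRNPH1* (0.729) and *CEP295* (0.728). *HSPA8* was nearest to *TIGD2* (0.652). The nearest to *DNAJB1* were *SECISBP2* (0.625) and *ZCCHC2* (0.616), and to *HSP90AA1* *ZNF23* (0.620) and *CENPA* (0.615). *HSPB1* (*GIPC1* 0.571, *ELOF1* 0.562), *HSPH1* (*ZNF503* 0.518, *RNF6* 0.515) and *HSPA1A* (*DUSP12* 0.509, *DAXX* 0.508) had no close match. With promoters within 1000 bp left out, none of the promoters named here is another heat shock gene, and the index is higher for genes bound by many lists.

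The wider chaperone system was taken from a fixed list of 77 genes, of which 76 were found. Their promoters were bound by a median of 39.5 lists against 15 over all coding promoters, 48 reached 31 lists, and 40 (52.6%) had an HSF4 peak against 30.9%. Among the 48 alone, 36 (75%) had an HSF4 peak, against 69.1% of all coding promoters bound by at least 31 lists. The 8 genes of TRiC, the cytosolic chaperonin, had a median of 63.5 lists, and all reached 31 lists and had an HSF4 peak. *CCT7* (89 lists) and *CCT4* (81) were bound by most and *CCT3* (34) by fewest, with *TCP1*, *CCT2*, *CCT5*, *CCT6A* and *CCT8* between them. Mitochondrial chaperones and proteases had a median of 57, from *HSPA9* (78) and *LONP1* (65) to *TRAP1* (41). HSF4 bound *HSPA9*, *GRPEL1*, *LONP1*, *CLPP* and *CLPX* among the 8. The chaperones of the endoplasmic reticulum had a median of 45, from *HSPA5* (62), which encodes BiP, and *CANX* (56) to *SERPINH1* (23), and HSF4 bound *HSPA5*, *CANX*, *PDIA3*, *PDIA4* and *HYOU1*.

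HSP90 co-chaperones had a median of 44 lists over 12 genes, led by *PTGES3* (70) and *STIP1* (63), with *STUB1* (25) last. HSF4 bound 8 of them, *STIP1*, *AHSA1*, *PTGES3*, *FKBP4*, *FKBP5*, *UNC45A*, *SUGT1* and *ST13*. Among 11 HSP40 genes *DNAJC7* (77) and *DNAJA2* (74) led and *DNAJA4* was bound by 0 lists, and HSF4 bound *DNAJA1*, *DNAJA2*, *DNAJB2*, *DNAJB9*, *DNAJC3* and *DNAJC7*. Exchange factors had a median of 33, with *BAG2* (74) and *BAG4* (42) highest and *BAG3* (24), a classic stress gene, lowest, and HSF4 bound *BAG1*, *BAG2* and *BAG5*. The other HSP70 and HSP110 genes had a median of 15. *HSPA4* (69) was the only one of the 9 with an HSF4 peak, *HSPA4L* and *HSPA14* had 39 each, and *HSPA12B* had 3. The strictly stress-inducible *HSPA6* was bound by 7 lists.

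The small heat shock genes other than *HSPB1* stood lowest, with a median of 0 lists. *HSPB6* and *HSPB7* were bound by 5 each, *HSPB8* by 1 and the remaining 5, *CRYAA* and *CRYAB* among them, by none, and HSF4 bound none of the 8. Many of these genes are known for expression in muscle or lens rather than liver. The factor genes *HSF2* (64 lists) and *HSF4* itself (60) were bound by most of their group, *HSFX1* and *HSFY1* by none, and HSF4 peaks lay at *HSF1*, *HSF2*, *HSF4* and *HSBP1*.

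**Figure D5:**
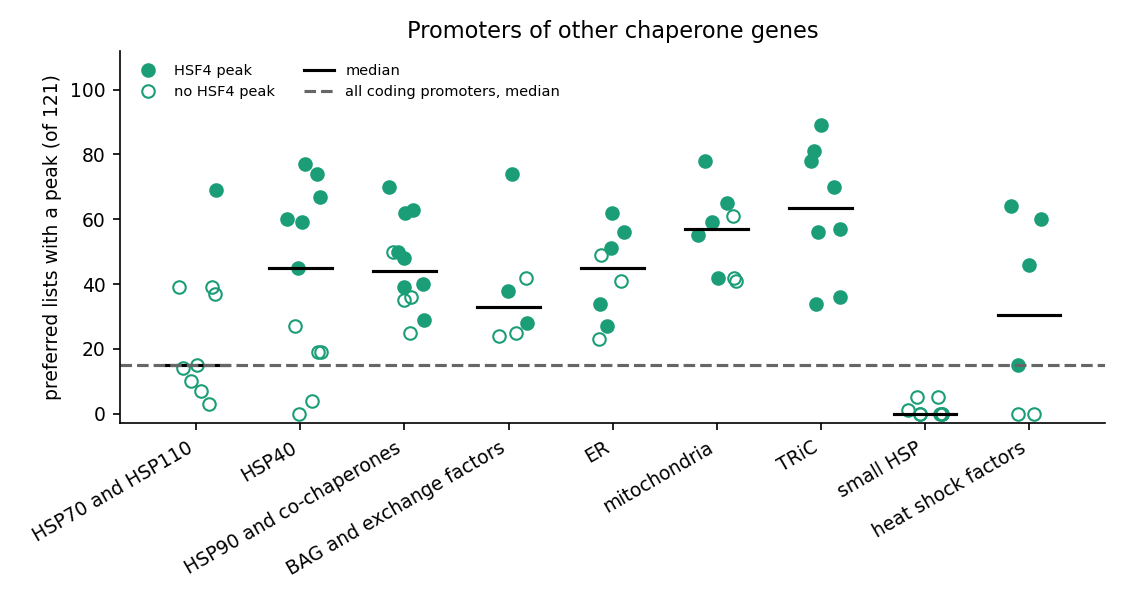
Number of preferred lists with a peak (vertical axis, of 121) at the promoters of 76 other chaperone and heat shock factor genes by subgroup (horizontal axis); filled points have an HSF4 peak, black lines are medians and the dashed line is the median of all coding promoters (15). All 8 TRiC genes are filled, and the 8 small heat shock genes lie at 0 to 5 lists.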

How the data were processed

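Peak lists of 127 FLAG-tagged DAPs in HepG2 were used; the 24 input samples served only as labels of shared controls. The ENCODE pipeline for ChIP-seq was run by the authors themselves on hg38, with optimal peaks called against input. Which aligner and peak caller were used is not given in the sources used here. The deposited score (540 to 1000) is on the scale of the irreproducible discovery rate, while the deposited signal is not scaled between lists, so it was used only to rank peaks within a list, and the deposited q column was treated as a score and not used. Replicates are not listed apart, and read depth is unknown.

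Canonical TSSs were those of GENCODE 44, on the same build. A promoter was called bound when a peak overlapped it within 500 bp, and where several peaks did, the one of highest signal gave rank and summit. Pairs of promoters were compared with exact two-sided McNemar tests over lists, adjusted over 4 pairs. As an alternative, input libraries were sign-flipped as blocks in 100000 resamples. The 31 blocks were single libraries or pairs of them. Lists sharing only 1 library of a pair could thus fall in different blocks, and that dependence was not taken into account. Elements were searched on both strands, and 32-base words on the whole genome. Intervals are 95% Wilson or exact binomial. Python 3.11.15, scipy 1.17.1, numpy 2.4.6 and pandas 2.3.3 were used, and the calculations were tested on simulated lists.

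The members, the split into inducible and constitutive genes and the other lists were chosen with earlier results of these data known. The TATA box, CCAAT and the wider search for elements were added after the data were seen. Lists given with values are HSF4 and, per gene, the 3 in which its peak ranks highest. Of the wider genes, the 2 bound by most lists and the 1 bound by fewest per subgroup and all with an HSF4 peak are named. *HSPA6*, *HSPA1L*, *HSPB8*, *CRYAA*, *CRYAB* and *HSFY1* were added after their values were seen. So were the examples of lists at only 1 gene of a pair and the other values of CENPX, HKR1, KAT6A, MEIS1, MGA, SRY, ZMYM4 and ZNF688. Per gene, the 2 coding promoters of highest Jaccard index are named, of which 1 is not reported here.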

Additional observations from a re-analysis of the deposited data

How the results depend on the processing

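Alternatives changed the window, the summit rule, the score threshold, the TSSs and the lists. The inducible genes stayed below the constitutive genes in all 8, with differences in median share of -28.9 points (250 bp window), -30.2 (summit in the window), -33.5 (score of 830 or more) and -28.5 (*HSPD1* and *HSPE1* as 1 promoter) against -37.6. HSF4 bound 6 to 8 of the genes, but 1, *HSPA1B*, at a score of 830 or more. The 6, with a 250 bp window or with summits in the window, left out *HSPA8*. The 8, with any annotated TSS allowed, included *HSP90AA1*. *HSPA1A* against *HSPA8* was not called with a 250 bp window or with summits in the window (15 against 24 lists, a difference of -9, adjusted p = 0.2), with TF lists only (-12, adjusted p = 0.0652) or with input libraries as blocks (-15, adjusted p = 0.0517); *HSPA1B* against *HSPA8* was not called with any annotated TSS (22 against 13, a difference of 9, adjusted p = 0.176). These are exact McNemar tests, apart from the blocks. The other 23 of 28 pair results kept direction and call. Of 60 counts per gene, 20 moved outside their interval, 10 of them at the stricter score. Exact elements lay at 5 genes, and at 9 with 1 mismatch allowed or 7 within 1000 bp, both chosen after seeing the data. Promoters were compared within each list, and no pairing of replicates could be made, since each DAP has 1 list. The number of lists and the unknown read depth limit all counts: a promoter without a peak is one where none was called.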
